A study of Rattus norvegicus with 12 samples.

Results

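Cathepsins are the proteases of the lysosome, and 9 of their genes, Ctsa, Ctsb, Ctsc, Ctsd, Ctsh, Ctsk, Ctsl, Ctss and Ctsz, are described here in heart (left ventricle) and whole blood from amiodarone-treated rats. The genes were taken by name, as every probe that was no control and whose gene name was one of these symbols or a synonym of one. Of 18007 named gene symbols on the array these are 9, and they had 13 of its 41012 probes, 3 for Ctsa (listed under its older name Ppgb), a pair each for Ctsl (listed as Ctsl1) and Ctss, and 1 for each of the others. Each probe had 1 spot, and none of these spots was saturated or marked as an outlier.

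Male Sprague-Dawley (CD) rats received amiodarone by mouth at 300 mg/kg per day for 10 days, and the controls received the vehicle, 1% methylcellulose. Their age was 10 weeks when treatment began by one label and 11 weeks by another. The 4 groups were vehicle and amiodarone left ventricle and vehicle and amiodarone whole blood, with 3 pools of rats each and 1 single-colour Agilent array per pool. How many rats made up a pool, and whether heart and blood pools came from the same rats, is not given in the labels, so the p-values measure the spread between these pools.

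Cathepsins are made as inactive precursors, carried to the lysosome largely by mannose 6-phosphate receptors, and activated there at acid pH. Most are cysteine proteases, whereas cathepsin D is an aspartic protease and cathepsin A a serine carboxypeptidase, and the cystatins and some serpins inhibit the cysteine members. Amiodarone is an antiarrhythmic drug, a cationic amphiphilic molecule that gathers in lysosomes and is known for the lipid storage it causes there.

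All values are log2 signal relative to the 75th percentile of the same array, so 0 is the 75th percentile, and a difference of 1 is a doubling. Levels were compared between groups for 1 probe at a time and never between genes. A gene counted as higher or lower where the Benjamini-Hochberg adjusted p of a limma fit over all features was below 0.05. The blood arrays differed in brightness by treatment: the 75th percentile of raw signal was 20.2 to 25.3 in vehicle and 54.1 to 83.5 in amiodarone blood, against 103 to 165 in the heart pools. Between 13549 and 14542 probes were well above background in vehicle blood, and between 19358 and 19965 in amiodarone blood. Cardiomyocyte markers took 4.78 to 5.57% of the signal in vehicle ventricle, and at most 0.00334% in any blood pool.

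In the left ventricle, 2 cathepsins were higher with amiodarone and the other 7 did not pass the test. Ctss, a cysteine protease that antigen-presenting cells use to cut the invariant chain of MHC class II, rose 2.55-fold, and Ctsl, a broad lysosomal cysteine endopeptidase, rose 2.08-fold. Of all 17696 features tested in this tissue, 8.43% passed the threshold in either direction, 4.39% higher and 4.04% lower. No cathepsin passed as lower, and at an unadjusted p below 0.05 in the same limma fit 4 were higher and 1 was lower. The median difference of the 9 cathepsins was 0.24, against 0.03 over all features.

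For Ctss, the vehicle ventricles measured 1.72, 2.24 and 1.61 and the amiodarone ventricles 3.34, 3.20 and 3.08. Every treated pool was above every control pool, and the second vehicle pool was the closest to them. The difference was 1.35 (SE 0.20, limma adjusted p = 0.00795). The second Ctss probe, fitted with every probe as its own feature, gave 1.25 (SE 0.21, adjusted p = 0.0135), so both probes showed the rise. The 60 bases of that second probe, 5′ to 3′ and with no position set apart by capitals, are shown because it repeats the rise of the probe that represents the gene.
Ctss, rn4 chr2:190466474-190466533: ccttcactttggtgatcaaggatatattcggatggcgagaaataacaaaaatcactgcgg
The brighter probe that represents the gene lies at chr2:190466683-190466742 of the same build, close by on the same chromosome. No gene model of this build was used here, so which exon either probe lies in is not stated.

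For Ctsl, the vehicle ventricles measured 5.95, 6.26 and 6.22 and the amiodarone ventricles 7.44, 7.10 and 7.05. The groups lay apart, with the first treated pool the highest. The difference was 1.05 (SE 0.17, limma adjusted p = 0.0114), and the second Ctsl probe gave 0.92 (SE 0.20, adjusted p = 0.0379). Leaving out the first vehicle pool ended the call for Ctsl, with a difference of 0.96 and a limma adjusted p of 0.0592. The 6 heart arrays lay on 2 slides: Ctss differed by 1.29 on the first and 1.46 on the second, and Ctsl by 1.17 and 0.83. Both calls held with the slide as a block, and with the first slide alone, 2 arrays against 2, neither passed (adjusted p = 0.0786 for Ctss and 0.0855 for Ctsl). The second Ctsl probe is printed because it shows the same rise in the heart from a different stretch of the transcript.
Ctsl, rn4 chr17:6290718-6290777: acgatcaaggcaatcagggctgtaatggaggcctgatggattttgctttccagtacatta

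The other endopeptidases did not pass in the heart. Ctsk, a collagen-degrading protease best known from osteoclasts, measured 1.1, 1.42 and 1.06 in vehicle and 0.90, 0.70 and 0.68 in amiodarone ventricle. Its treated pools all lay below the controls, at a difference of -0.43 (SE 0.16, limma adjusted p = 0.142). Ctsb, an abundant lysosomal cysteine protease, was level at 7.64 ± 0.09 in vehicle and 7.66 ± 0.09 in amiodarone pools (SD, n = 3 each), with a 95% interval of the difference from -0.29 to 0.34. Ctsd, the aspartic protease, measured 7.56, 7.38 and 7.44 against 7.76, 7.93 and 7.83. Its groups did not overlap, yet the difference of 0.38 (SE 0.13) had a limma adjusted p of 0.131.

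Among the exopeptidases, Ctsc, the dipeptidyl peptidase that activates the serine proteases of immune granules, came nearest to the threshold. It measured 3.06, 2.83 and 2.99 in vehicle and 3.71, 3.45 and 3.40 in amiodarone ventricle, a difference of 0.56 (SE 0.15, limma adjusted p = 0.0627). The treated pools were all higher than the controls, and the call was made under scaling by the array median (difference 0.64, adjusted p = 0.0496). Ctsh, an aminopeptidase, differed by 0.24 (SE 0.17) and Ctsa, which also protects neuraminidase and beta-galactosidase in the lysosome, by 0.12 (SE 0.14), with overlapping groups for both. The 3 Ctsa probes gave 0.12, 0.12 and -0.15, none past the threshold. Ctsz, a carboxypeptidase, differed by -0.35 (SE 0.23), and the first amiodarone pool, at -1.20, lay well below the other two at -0.33 and -0.45. Counted over all 9 genes, 5 had groups that did not overlap, where 32.3% of all features did so.

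**Figure D1:**
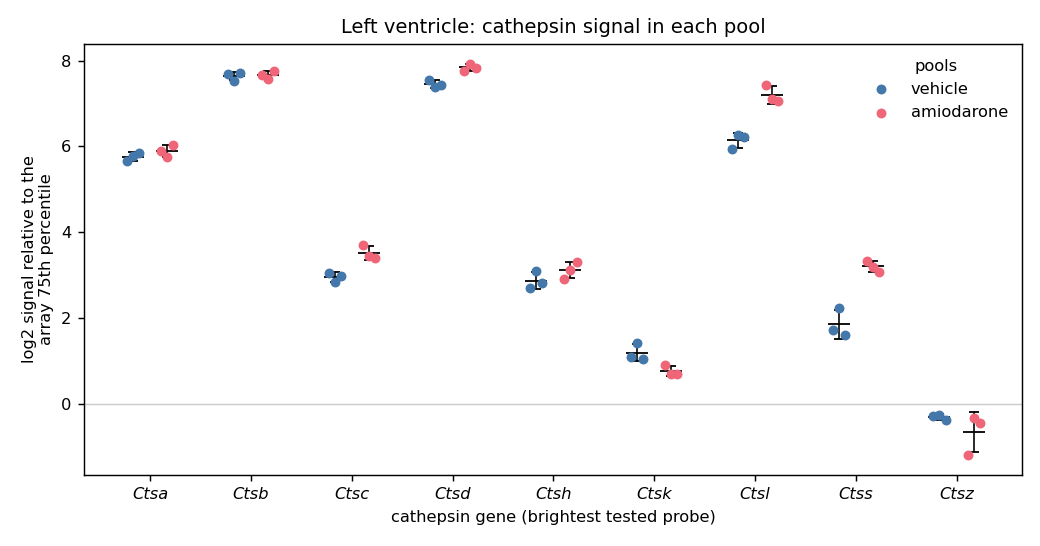
Log2 signal of each cathepsin in the 6 left ventricle pools, relative to the 75th percentile of the array (y axis), by gene (x axis); points are pools, horizontal bars the group means and vertical bars the SD of 3 pools. The vehicle and amiodarone points of Ctss and Ctsl stand apart, those of Ctsc, Ctsd and Ctsk lie apart by less, and those of the other 4 genes overlap.

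Marker counts in the heart are to be read against the 8.43% of all features that passed there, 4.39% higher and 4.04% lower. Of 15 macrophage markers fixed as a list, 11 were tested in the heart, where 3 were higher (C1qb by 0.89, Mrc1 by 1.27 and Lyve1 by 1.04) and none lower, with none lower at an unadjusted p below 0.05 in limma either. The other 8 did not pass, and Fcgr1a (0.07), Csf1r (0.07), Aif1 (0.01) and Adgre1 (-0.01) lay near 0. The count of higher markers was 5 with normexp background correction, 1 without scaling and 1 on the spike-in scale. The median of the list was 0.46. Its summed level was 0.0190 to 0.0328% of the signal in vehicle and 0.0317 to 0.0398% in amiodarone ventricle. Cd163, Marco, Mertk and Msr1 were not well above background on all 3 arrays of either group. Of 6 tested monocyte markers, Ly6c was lower, and of 6 tested neutrophil markers, S100a8 and S100a9 were higher and Lcn2 lower. Neither list had a lower call without scaling. The summed level of the neutrophil list was 0.00475 to 0.00639% in vehicle and 0.00383 to 0.00463% in amiodarone ventricle, so it did not rise with these 2 genes. Fibroblast markers, which stand beside Ctsk here, were lower for 5 of 9 tested genes, among them Col1a1 by -2.12, with a summed level of 0.118 to 0.185% in vehicle and 0.0571 to 0.0768% in amiodarone ventricle. Red cell markers were lower for 7 of 10, at 0.203 to 0.236% against 0.0582 to 0.0849%. At an unadjusted p below 0.05 in limma, 1 fibroblast marker and 1 red cell marker were higher. With normexp background correction 5 red cell markers were lower and 1 was higher. In these tissue samples, more cells of a type and more RNA per cell cannot be told apart, and the part of these cells in the Ctss, Ctsl and Ctsk values was not tested.

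In whole blood, 5 cathepsins were higher with amiodarone and 2 were lower. Ctsh rose 3.26-fold, Ctsc 2.78-fold, Ctss 2.32-fold, Ctsa 1.93-fold and Ctsz 1.57-fold, and Ctsb and Ctsd were lower by 4.56-fold and 2.26-fold. Ctsl did not pass, and Ctsk was not well above background on any blood array and was not tested. In this tissue 68% of the 15860 features tested passed the threshold, 41.1% higher and 26.9% lower, so 7 of 8 cathepsins past it is read against a background that is itself most of the array. The median of all features was 0.46, and that of the 8 cathepsins 0.81, on the same scale.

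Ctsh measured 1.74, 1.91 and 1.61 in vehicle blood and 3.47, 3.53 and 3.37 in amiodarone blood. The pools within each group lay close together and the groups far apart, with a difference of 1.70 (SE 0.17, limma adjusted p = 0.000949). It was larger than the differences of 95.7% of all features, a rank that a change of scaling factor of the arrays leaves as it is. The Ctsh probe is printed because it carries the largest rise among the cathepsins in blood. Its rn4 position in the deposited file, chr8:94986941-94989247, spans 2307 bases for 60 bases of probe. The probe therefore does not match a single unbroken stretch of the genome.
Ctsh, rn4 chr8:94986941-94989247: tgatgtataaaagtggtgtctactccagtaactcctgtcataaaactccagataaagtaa

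Ctsc measured 0.78, 0.67 and 0.96 in vehicle and 2.56, 2.11 and 2.17 in amiodarone blood, a difference of 1.48 (SE 0.20, limma adjusted p = 0.00127). All treated pools exceeded all controls, and the difference was above that of 92.5% of features. Ctss measured 3.68, 3.77 and 3.94 against 5.15, 5.04 and 4.83, a difference of 1.21 (SE 0.18, limma adjusted p = 0.00162), and its second probe gave 1.04. The groups did not overlap on either Ctss probe. Ctsa measured 5.61, 5.65 and 5.83 against 6.83, 6.45 and 6.66, and its 3 probes gave 0.95, 0.97 and 0.96, each past the threshold. Here the Ctsa probes gave nearly one value, unlike in the heart, where none of them moved past its error.

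Ctsz and Ctsl moved little more than the array as a whole. Ctsz measured 2.17, 2.02 and 1.98 in vehicle and 2.57, 2.94 and 2.63 in amiodarone blood, a difference of 0.65 (SE 0.18, limma adjusted p = 0.0156), which was above 59.0% of all features. Without the second amiodarone pool its adjusted p was 0.0509, and with the first slide alone 0.0605. Ctsl measured 0.64, 0.13 and 1.13 in vehicle and 1.32, 1.23 and 1.34 in amiodarone blood, with a difference of 0.66 (SE 0.26, limma adjusted p = 0.0564). Its treated pools lie close together while the controls spread over 1 log2 unit, and without the third vehicle pool, the highest control, the difference was 0.91 with an adjusted p of 0.0103. The second Ctsl probe was not well above background on any vehicle blood array and was so on all 3 amiodarone arrays, a level at least 1.30-fold higher with amiodarone. Such a bound compares the measured group with the lowest signal that counted as well above background in each pool of the other group, or with the probe's own value where that is higher.

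Ctsb and Ctsd, lysosomal proteases of nearly all cells, were the members that were lower in blood. Ctsb measured 9.96, 10.44 and 11.43 in vehicle and 8.48, 8.10 and 8.68 in amiodarone blood, a difference of -2.19 (SE 0.38, limma adjusted p = 0.00262). Ctsd measured 8.97, 9.21 and 9.96 against 8.13, 8.17 and 8.31, a difference of -1.18 (SE 0.27, limma adjusted p = 0.00762). For both, the third vehicle pool was the highest and no treated pool reached any control. The Ctsb difference was above that of 3.65% of features and the Ctsd difference above 19.7%. All 8 tested cathepsins had blood groups that did not overlap, as did 73.9% of all features.

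These falls, and the size of the rises, depend on how the arrays are brought to one scale. As raw intensity, the Ctsb probe read 25184, 27997 and 66357 in vehicle and 29919, 14835 and 30031 in amiodarone blood, and the groups overlapped. For Ctsd the raw intensities were 12712, 11951 and 23976 against 23477, 15620 and 23214. Without scaling, the Ctsb difference was -0.60 (limma adjusted p = 0.182) and that of Ctsd 0.41 (0.321), while Ctsa, Ctsc, Ctsh, Ctsl, Ctss and Ctsz were higher by 2.24 to 3.29. With the spike-in probes as the scale, Ctsb gave -0.94 (limma adjusted p = 0.0579) and Ctsd 0.07 (0.890), and the same 6 genes passed as higher. The median over all features was 2.04 without scaling and 1.70 on the spike-in scale. Of all features 77% passed without scaling and 68.1% on the spike-in scale, with 97.5% and 97.2% of those calls higher. With normexp background correction, 2 of the 8 passed, Ctsc as higher at 0.71 and Ctsb as lower at -2.18, where 8.19% of all features did. In the authors' deposited values, refitted in limma, Ctsb was -1.61 and Ctsd -0.73, both past the threshold, and Ctsz at 0.33 was not.

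**Figure D2:**
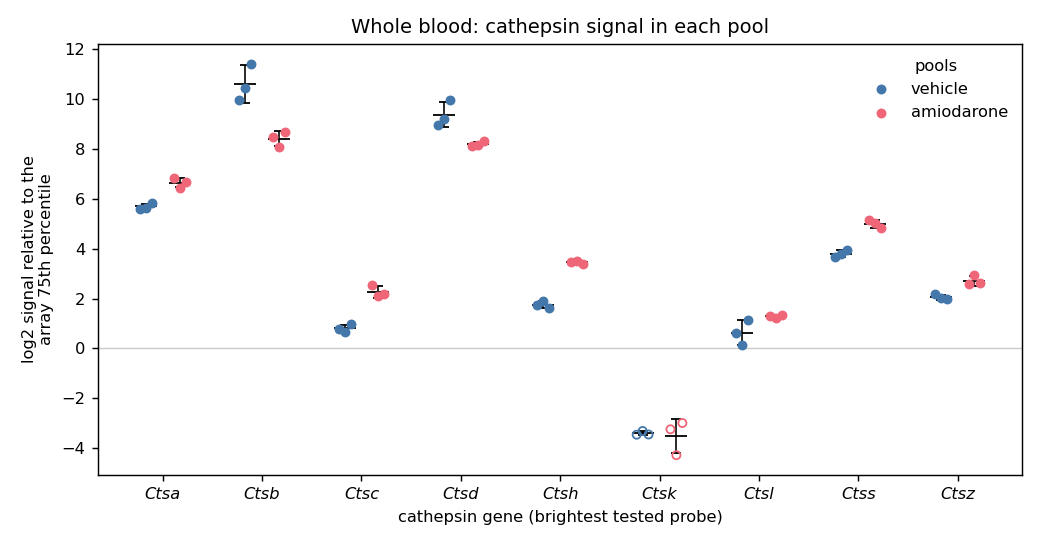
Log2 signal of each cathepsin in the 6 whole blood pools, relative to the 75th percentile of the array (y axis), by gene (x axis); points are pools, horizontal bars the group means and vertical bars the SD of 3 pools, and open points were not well above background. Ctsb and Ctsd lie lower in the amiodarone pools and the other tested genes higher, and Ctsk is not well above background on any of the 6 arrays.

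**Figure D3:**
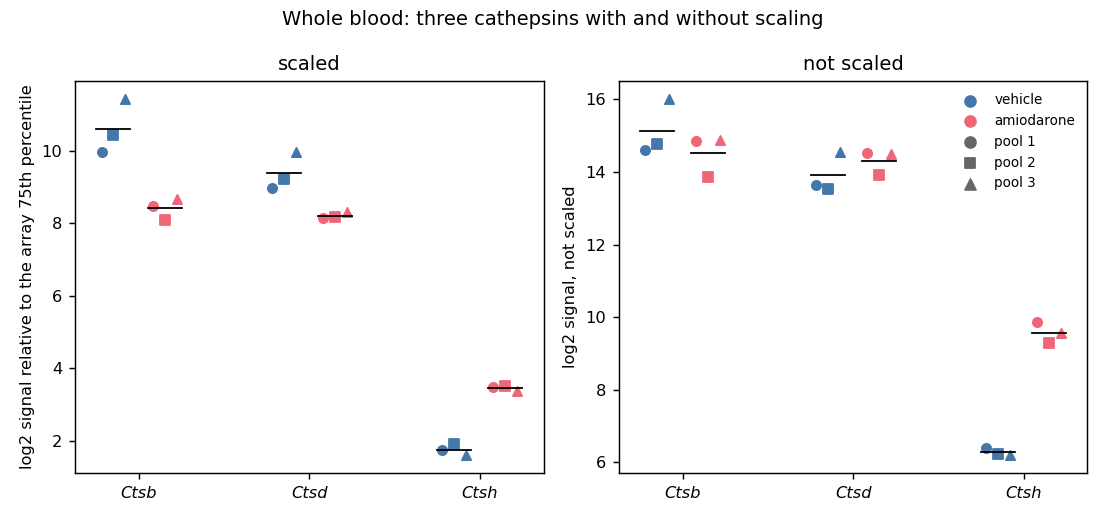
Ctsb, Ctsd and Ctsh in the 6 blood pools, as log2 signal relative to the array 75th percentile (left) and as log2 signal that was not scaled (right); point shapes are pool numbers and black lines the group means. The groups of Ctsb and Ctsd separate on the left and overlap on the right, and those of Ctsh separate in both.

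Blood cell markers were counted between the same groups, where 68% of all features passed, 41.1% higher and 26.9% lower. Of 13 red cell markers tested, 12 were lower and none higher, with a median of -2.25, and their summed level was 4.28 to 4.69% of the signal in vehicle and 1.70 to 2.44% in amiodarone blood. None was higher at an unadjusted p below 0.05 in limma, and without scaling 4 were lower and 1 higher. Of 11 neutrophil markers 8 were higher and 1 lower (summed level 0.0165 to 0.0213% against 0.0889 to 0.159%), and of 10 monocyte markers 7 were higher and 1 lower (0.0391 to 0.0699% against 0.181 to 0.232%). Among macrophage markers 7 of 10 were higher and C1qb was lower (0.0151 to 0.0205% against 0.0533 to 0.0687%). T and natural killer cell markers were higher for 9 of 12 (0.0540 to 0.0624% against 0.129 to 0.149%), and platelet markers for 6 of 8. For the neutrophil, monocyte, macrophage, T cell and platelet lists the share that passed in either direction was not far from that of all features. In each of these lists the share that passed as higher was above the 41.1% of all features. With normexp, 6 neutrophil markers were still higher and no monocyte, T cell or platelet marker was. The part of these cells in the cathepsin differences was not tested.

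The drug effect was then compared between the tissues as a contrast in 1 limma fit of all 12 arrays, for the 8 cathepsins tested in both. Ctsa, Ctsc, Ctsh and Ctsz were more positive in blood than in heart, Ctsb and Ctsd more negative, and Ctsl and Ctss did not pass. Over all 13225 features 51.4% passed this test, 32.6% more positive and 18.8% more negative in blood. The largest contrast was that of Ctsb at -2.21 (SE 0.42, adjusted p = 0.00176), followed by Ctsd at -1.56 (SE 0.30, adjusted p = 0.00201) and Ctsh at 1.46 (SE 0.23, adjusted p = 0.000671). For Ctss, which rose in both tissues, the contrast was -0.14 with a 95% interval from -0.70 to 0.43, so the tissues may differ by any amount within it. For Ctsl it was -0.39, with an interval from -1.08 to 0.30. The contrast carries the scaling of the blood arrays. With normexp 1 cathepsin passed, Ctsb, where 9.47% of all features did. Without scaling 6 cathepsins passed, all more positive in blood, with Ctss and Ctsl among them and Ctsb and Ctsd not. There 78.5% of all features passed, and 99.1% of those calls were more positive in blood.

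**Figure D4:**
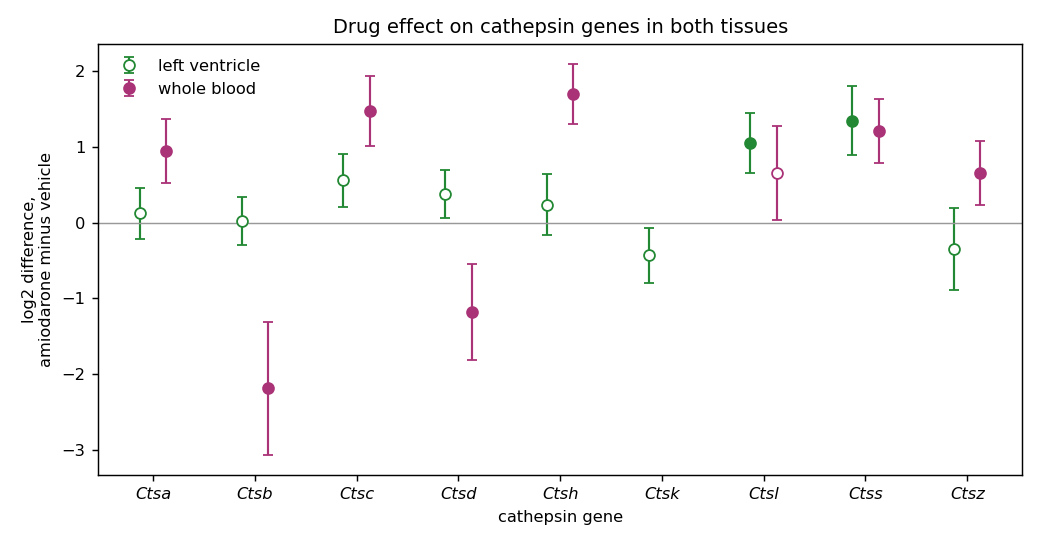
Log2 difference between amiodarone and vehicle pools (y axis) for each cathepsin (x axis) in left ventricle and whole blood, with 95% intervals from limma; filled points have an adjusted p below 0.05. Ctss is higher in both tissues, Ctsb and Ctsd lie below 0 in blood, and Ctsk has a heart value only.

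**Figure D5:**
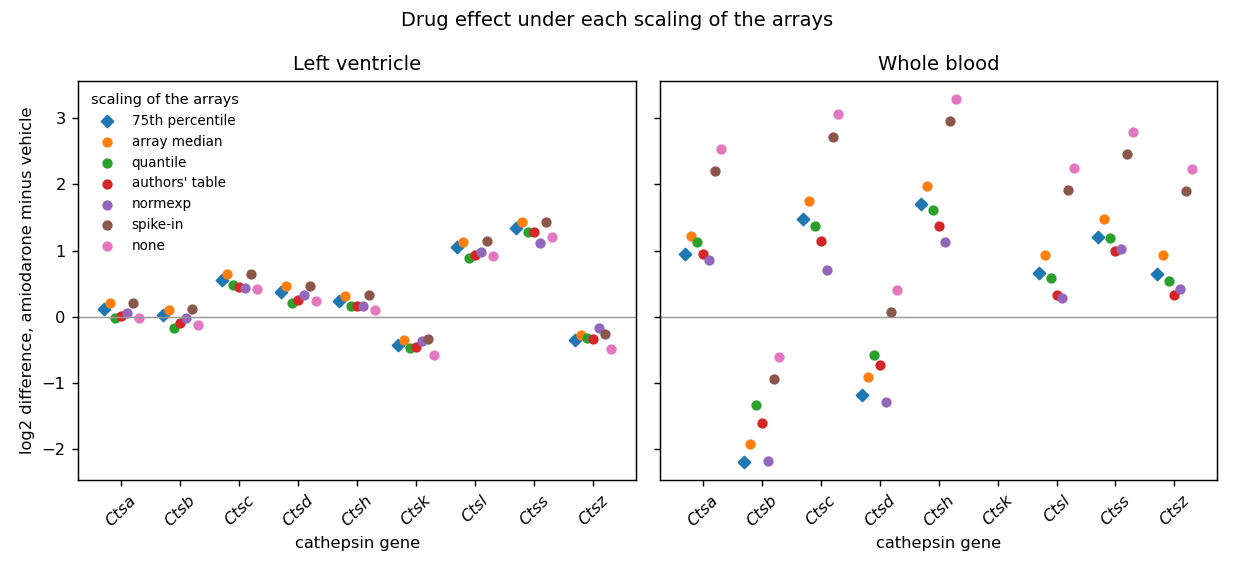
Log2 difference between amiodarone and vehicle (y axis) for each cathepsin (x axis) under 7 ways of processing the arrays, in left ventricle (left panel) and whole blood (right panel); diamonds are the scaling on the 75th percentile. In the ventricle Ctss and Ctsl stay at 0.88 or above under each way, whereas in blood all genes lie higher on the spike-in scale and without scaling, where Ctsd is above 0.

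Without the drug, heart and blood differed in most cathepsins. In vehicle pools Ctsc, Ctsh, Ctsk and Ctsl were higher in heart and Ctsb, Ctsd, Ctss and Ctsz higher in blood, where 81.1% of 20331 features passed, 42.8% higher in heart and 38.4% lower. Ctsl had the largest difference, 6.14 ± 0.17 in heart and 0.63 ± 0.50 in blood (SD, n = 3 each), or 5.51 on the log2 scale (SE 0.23, limma adjusted p = 1.11e-09). Its second probe was at least 52.9-fold higher in vehicle heart. Ctsk was at least 5.89-fold higher in vehicle heart and at least 12.2-fold higher in amiodarone heart than in blood, where it was not well above background on any array. Ctsc was higher in heart by 2.15 and Ctsh by 1.12, and for Ctsb the heart minus blood difference was -2.97. The directions of some members turn with the scaling. Without it 5 cathepsins were higher in heart and none lower, and Ctsd (0.59), Ctss (0.57) and Ctsz (0.15) changed sign without passing. Of all features 87.3% then passed, and 83.2% of those calls were higher in heart. On the spike-in scale 5 cathepsins were higher and 1, Ctsb, was lower, where 85.5% of all features passed and 80.7% of those calls were higher. On the 75th percentile scale Ctsa was the member whose levels were nearest, 5.76 ± 0.10 in heart and 5.69 ± 0.12 in blood (SD, n = 3 each), with an interval of the difference from -0.28 to 0.42.

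In amiodarone pools the order over the 4 groups was different for some members. Here 80.5% of features passed, 39.6% higher in heart and 41% lower, and Ctsc, Ctsk and Ctsl were higher in heart while Ctsa, Ctsb, Ctss and Ctsz were higher in blood. Ctsa and Ctsb turned sign and did not pass without scaling (0.029 and 0.032), on the spike-in scale (0.26 and 0.26) and with normexp (0.40 and 0.63). With quantile scaling 6 cathepsins were lower in heart, Ctsd and Ctsh among them, where 78.5% of all features passed in either direction. Ctsh went from 1.12 higher in heart without the drug to a heart minus blood difference of -0.34 (SE 0.17, limma adjusted p = 0.0821; 0.45 without scaling), its vehicle blood pools being the lowest of the 4 groups and the other 3 groups lying between 2.69 and 3.53. Ctsb ran from highest in vehicle blood (9.96 to 11.43), through amiodarone blood (8.10 to 8.68), to both heart groups (7.53 to 7.75), whose values overlap. Leaving out any one amiodarone heart pool, or the first or the third amiodarone blood pool, ended the Ctsb call between amiodarone heart and blood (adjusted p of 0.0617 to 0.122). Ctss ran from vehicle heart (1.61 to 2.24) through amiodarone heart (3.08 to 3.34) and vehicle blood (3.68 to 3.94) to amiodarone blood (4.83 to 5.15), with no overlap between neighbours. These orders hold for the 75th percentile scale. As log2 signal without scaling, the Ctss means were 8.32 in vehicle blood, 8.90 in vehicle heart, 10.11 in amiodarone heart and 11.12 in amiodarone blood, so vehicle blood was the lowest, and the Ctsb means were 15.14 in vehicle blood, 14.68 in vehicle heart, 14.57 in amiodarone heart and 14.53 in amiodarone blood. Tissue cannot be told apart from RNA kit, which was RNeasy for heart and PAXgene for blood, or from slide, and the authors normalized each tissue by itself, per the series' design text.

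The genes around the cathepsins in their pathway were counted from fixed lists, to be read against the 8.43% of all features that passed in heart and the 68% in blood. Among protease inhibitors in a list of cystatins, their relatives and serpins, the heart had 1 of 4 tested genes higher and none lower at either p threshold. It was Cst3, the secreted cystatin C, by 0.92 (SE 0.15, limma adjusted p = 0.0114). Without scaling none of the 4 passed. Its rise stands beside those of Ctss and Ctsl, 2 of its target enzymes. In blood 5 of 7 were higher and 1 lower: the serpin Serpinb1a rose by 2.71 and Csta, the intracellular cystatin A, by 1.41. Another serpin, Serpina3n, was lower by -1.94, and whether either serpin inhibits a cysteine cathepsin was not tested. The median of the 7 genes was 1.00, above the 0.46 of all features, and with normexp 1 was higher and 1 lower.

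Of 16 tested genes for sorting and delivery to lysosomes none passed in heart (1 higher and 1 lower at an unadjusted p below 0.05 in limma). In blood 9 of 15 were higher and 2 lower, in either direction a share near that of all features. The share higher was above the 41.1% of all features. With normexp 1 was higher and 2 lower. Sort1, a sorting receptor, differed by 0.51 in heart (limma adjusted p = 0.104) and, on a different probe, by 1.97 in blood. That blood probe was well above background on 2 of the 3 vehicle arrays. Gga3, an adaptor at the trans-Golgi network, was lower in blood by -1.88. Scarb2, the receptor for glucocerebrosidase, was at least 2.30-fold higher in amiodarone blood. Of 12 other lysosomal proteases and processing enzymes none passed in heart (2 higher and 1 lower at an unadjusted p below 0.05 in limma). With normexp 2 of them passed as higher in heart, and with array median scaling 1 did. In blood 10 of these 12 were higher and 1 lower, among them Cpq by 1.56 and Dpp7 by 1.09, and with normexp none passed.

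Of 4 tested regulators of lysosomal genes none passed in heart (1 higher at an unadjusted p below 0.05 in limma), and in blood Stat3 (1.18), the lysosomal calcium channel gene Mcoln1 (0.76) and Tfeb (0.62), the transcription factor of the lysosomal gene network, were higher. With normexp none of these 4 passed in blood, and in the authors' deposited values, refitted in limma, 1 did. Of the granule proteases, many of which cathepsin C activates, none of 9 passed in heart (2 lower at an unadjusted p below 0.05 in limma). Without scaling 1 of them passed as lower there. In blood 5 of 13 were higher and 4 lower, and none passed with normexp. Gzmk rose by 1.49 and Gzma by 1.19, and the mast cell protease gene Mcpt8 was lower by -1.37. Of the MHC class II genes, whose loading depends on cathepsin S, none of 6 passed in heart (1 higher and 1 lower at an unadjusted p below 0.05 in limma). With normexp, with quantile scaling and in the authors' deposited values, 1 of the 6 passed as lower in heart. Cd74, the invariant chain that cathepsin S cuts, differed by -0.44 there (adjusted p = 0.0899), opposite in sign to Ctss. In blood 2 of 9 passed, Ifi30 at 0.77 and RT1-DMa at 0.42, both higher, and none passed with normexp.

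Among 13 other cathepsin genes in a list, 3 were measured well enough to be tested in heart and none passed (1 lower at an unadjusted p below 0.05 in limma), with Ctsw at -0.46 (adjusted p = 0.154). In blood Ctsf was higher by 1.44 and Ctsq lower by -2.02, of 4 tested. Ctsq is a member of the placental cathepsin cluster, whose genes resemble one another, so the probe may read a related transcript, and this was not tested.

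Over the 12 arrays, the genes whose scaled values ran most like those of Ctss, of 6073 genes well above background on every array, were Il6r (Pearson r = 0.98), Oas1a (0.98), LOC102549726 (0.98), Fcgr2b (0.98) and Trim25 (0.98). For Ctsh they were Smg6 (0.97), Kat14 (0.96), Ctdp1 (0.96), Trmt2a (0.95) and Marf1 (0.95). These are descriptions over 4 groups of arrays that share the difference in brightness between tissues and treatments, and they carry no test.

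The bases before the start site were read from the RefSeq promoter table of build GRCr8, which held 8 of the 9 genes; Ctsb was not in it. In the 250 bases upstream, 3 patterns were searched on both strands: CACGTG, the core that TFEB and other E-box factors bind; TCACGTGAC, which contains it and is the form described for lysosomal genes; and GAAANNGAA, a short form of the interferon response element. Of 33469 promoters, 5.59% held the first, 0.535% the second and 8.12% the third. Among the 8 cathepsins Ctsd held CACGTG, at positions starting -157 and -10 from the start site, the second of them within a TCACGTGAC, and no other did. Ctss held GAAANNGAA once, starting at -36, and Ctsk once, at -182, and no other did. The Ctsd and Ctss windows are printed, 5′ to 3′ on the gene's strand with the matches in capitals. They are shown since Ctss rose in both tissues and Ctsd was the only member tested in blood whose sign there turned with the scaling. A match is a description of the sequence and not evidence of binding.
Ctsd, GRCr8 chr1:206968822-206969071, minus strand: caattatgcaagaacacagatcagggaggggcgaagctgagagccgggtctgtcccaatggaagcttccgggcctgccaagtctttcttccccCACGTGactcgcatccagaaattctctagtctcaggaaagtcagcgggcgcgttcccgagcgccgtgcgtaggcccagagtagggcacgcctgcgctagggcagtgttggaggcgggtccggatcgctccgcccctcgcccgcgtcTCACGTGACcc
Ctss, GRCr8 chr2:185775146-185775395, plus strand: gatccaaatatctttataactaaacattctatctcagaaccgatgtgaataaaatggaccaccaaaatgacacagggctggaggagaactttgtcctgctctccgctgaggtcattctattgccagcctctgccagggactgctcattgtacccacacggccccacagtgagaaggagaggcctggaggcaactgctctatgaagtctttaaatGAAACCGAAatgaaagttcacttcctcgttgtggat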

How the data were processed

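The intensity of each spot in the scanner files is a processed signal, computed per the file headers with Agilent Feature Extraction 9.5.1.1 after background subtraction and detrending and with no scaling between arrays. The deposited value table holds the authors' normalized intensity on a linear scale, which followed the scanner values up to a shift that differed between arrays; the normalization method is unstated here, and this table was used as an alternative. Outlier spots were left out, values moved to log2, spots of a probe averaged, and the log2 of the 75th percentile of each array subtracted. A probe was tested where all 3 arrays of 1 group or more measured it well above background, and the brightest such probe stood for its gene. Of 41012 probes, 16336 were named by accession, 3735 by symbol and 1108 by synonym through RefSeq gene names, while 19833 kept the file's name.

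Each tissue was fitted alone in limma 3.58.1 (R 4.3.3, data.table, version 1.17.8), two-sided, with Benjamini-Hochberg adjustment over all features; contrasts between tissues came from 1 fit of 12 arrays. The script was tested on simulated data. An exact permutation test of 3 against 3 cannot go below p = 0.1, so none is given. Precision is limited by having 3 arrays per group, and no arrays were identical. The cathepsin genes and all gene lists were chosen with earlier results of these data known. Named genes are all cathepsins, from each list up to 3 called genes by smallest p (or 1 where none was called), and the 5 genes most correlated with Ctss and with Ctsh. Of these, 1 gene is not reported here. Alternatives covered background correction, scaling, filter, probe choice, outlier spots, array weights, replicate and slide blocks, slides and single pools.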

Additional observations from a re-analysis of the deposited data

Results flagged for a closer look

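For 6 cathepsins the drug effect in blood differed from that in heart by the contrast in limma (adjusted p below 0.05, as for 51.4% of all features). The blood minus heart values were 0.83 for Ctsa (adjusted p = 0.00841), -2.21 for Ctsb (0.00176), 0.91 for Ctsc (0.00815), -1.56 for Ctsd (0.00201), 1.46 for Ctsh (0.000671) and 1.00 for Ctsz (0.0159). With normexp background correction Ctsb alone kept its call, and without scaling the Ctsd value turned to 0.17. The blood groups also differ in raw brightness, and the part of that in these values was not tested.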

How the results depend on the processing

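Over 991 alternatives for single cathepsins, 895 kept direction and side of the threshold, 38 lost a call, 21 gained one and 37 changed sign; no cause was tested unless given. Of 9 cathepsins in heart 2 passed. That count was 1 without scaling (Ctss), 0 without the filter on dim probes (35855 features tested in place of 17696), 0 with the first slide alone (fewer arrays) and 5 with array weights (Ctsc, Ctsd, Ctsk, Ctsl and Ctss). Leaving out 1 pool gave 1 to 2. Of 8 in blood 7 passed, and 2 with normexp. All 8 passed with array median scaling, with array weights and with the replicate or slide block. Ctsl in blood gained a call in 10 of 23 alternatives. For the tissue difference in drug effect 6 passed, and 1 with normexp. Between vehicle heart and blood 8 passed, and 5 without scaling. Between amiodarone heart and blood 7 passed, and 4 on the spike-in scale.

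Sign changes in heart concerned genes near 0. Ctsa gave -0.020 with quantile scaling and -0.015 without scaling. Ctsb gave -0.023 with normexp, -0.16 with quantile scaling, -0.12 without scaling, -0.095 in the authors' table, -0.062 with array weights, and -0.031 to 0.071 leaving out 1 pool. In blood Ctsd gave 0.41 without scaling and 0.072 on the spike-in scale. In the blood minus heart contrast Ctss gave 0.057 with median scaling, 1.59 without scaling, 1.02 on the spike-in scale and 0.083 with the first slide alone, Ctsl 1.33 without scaling and 0.77 on the spike-in scale, and Ctsd 0.17 without scaling. Between vehicle heart and blood, no scaling gave 0.59 for Ctsd, 0.57 for Ctss and 0.15 for Ctsz, and the spike-in scale 0.26 for Ctsd and 0.24 for Ctss. Between amiodarone heart and blood, the values of Ctsa, Ctsb, Ctsd and Ctsh were 0.40, 0.63, 1.02 and 0.56 with normexp, 0.029, 0.032, 0.43 and 0.45 without scaling, and 0.26, 0.26, 0.66 and 0.68 on the spike-in scale. Median scaling gave 0.0086 for Ctsd and 0.028 for Ctsh.

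Over all features, 1492 passed in heart, against 746 without scaling, 948 on the spike-in scale, 285 without the filter, 268 with the first slide alone, 4298 with array weights and 525 to 1320 leaving out 1 pool. In blood 10780 passed, against 1299 with normexp and 25074 without the filter. The share of these calls that were higher was 52.1% in heart, 64.2% with median scaling, 62.1% on the spike-in scale and 30.4% without scaling. In blood it was 60.5%, 97.5% without scaling, 97.2% on the spike-in scale, 47.1% in the authors' table and 19.1% with normexp. The median scale of probes above background on every array and the fit of both tissues together were chosen after seeing the data. The authors' table was not used for heart minus blood in vehicle or amiodarone pools. It was used for the blood minus heart contrast of drug effects, where 3 cathepsins were more positive and 2 more negative in blood.

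With the replicate number as a block, 1 cathepsin passed in heart (Ctss; Ctsl had an adjusted p of 0.0509), and 723 features did. Pools of the same number deviated together with correlations of -0.17, -0.24 and 0.32 in heart and 0.08, 0.17 and 0.31 in blood, so the numbers were not taken as pairs; in each tissue the pools numbered 3 also shared the second slide, and those numbered 1 and 2 the first. Signal over background limits Ctsk and the second Ctsl probe in blood.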

Other observations

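The counts below are to be read against the 8.43% of all features that passed in heart. In blood 68% passed, 41.1% higher and 26.9% lower. Osteoclast genes, the usual company of Ctsk, were mostly unmeasured. Of 8 in the list, Acp5 was tested in heart, at -0.24 (limma adjusted p = 0.385), and Acp5 and Mmp9 in blood. Mmp9, which is in the list of neutrophil markers as well, was higher in blood by 2.52. Its probe was well above background on 2 of the 3 vehicle blood arrays. Of 10 endothelial markers in heart Tie1 was lower by -1.04 and none was higher, also at an unadjusted p below 0.05 in limma, and in blood 3 of 4 were higher and Pecam1 was lower by -1.67. Of 15 cardiomyocyte markers in heart Myh7 was higher by 0.80 and none was lower, also at an unadjusted p below 0.05 in limma. The B cell marker Fcer2, the 1 gene of its list tested in heart, was lower there by -2.41. Of 4 platelet markers tested in heart Gp1bb and Pf4 were higher and Treml1 was lower.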
